A study of Mus musculus with 14 samples.

Results

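The semaphorins, plexins, ephrins, Eph receptors, Slits and Robos are 6 gene families that signal between neighbouring cells, and 57 of the 31274 genes in the table carry a symbol of these families (Sema3 to Sema7, Plxna to Plxnd, Efna, Efnb, Epha, Ephb, Slit1 to Slit3 and Robo1 to Robo3). They were taken by symbol and not by measured values, though earlier results of these data were known when they were chosen. There were 20 semaphorins, 9 plexins, 8 ephrins, 14 Eph receptors, 3 Slits and 3 Robos. The study sequenced RNA from the uterine tissue of intact FVB/N mice aged 2 months that had received no exposure. The mice were either wild type (WT) or labelled HIF2A cKO, a conditional knockout of HIF2A, which Epas1 encodes and which switches on genes when oxygen is low. Each genotype was sampled at diestrus, the progesterone-dominated stage of the oestrous cycle, and at estrus, the stage of mating. Of the 14 libraries, each genotype had 4 at diestrus and 3 at estrus. The labels name neither a Cre line nor the exons removed. The labels do not say that the libraries came from separate animals, so each p-value reflects only how these samples scatter, and that scatter may be technical.

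These families were found as signals that steer growing axons, and they also act in blood vessels and epithelia. Semaphorins are ligands for plexins, the secreted class 3 semaphorins with neuropilins as co-receptors. Ephrins are membrane-bound ligands for the Eph receptor tyrosine kinases, where ephrin-A proteins hang on a lipid anchor and mostly bind EphA receptors, and ephrin-B proteins span the membrane and mostly bind EphB receptors. Slits are large secreted ligands of the Robo receptors. The uterine lining is rebuilt in each cycle, with changes in epithelium, stroma and vessels, and all 3 kinds of signal are made in such tissues.

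The values are FPKM, fragment counts corrected for transcript length and for library size, summing to between 437879 and 497688 per library, and the absolute depth is unknown, so low values are the least precise. Epas1 did not show a fall in the libraries labelled HIF2A cKO. It stood at 39.5 ± 4.44 FPKM (SD, n = 4) against 34.8 ± 5.82 in WT at diestrus (exact two-sided permutation p = 0.229) and at 41.2 ± 4.01 against 32.9 ± 1.56 (n = 3) at estrus (exact permutation p = 0.1, the smallest that groups of this size can give). A gene-level FPKM can miss the loss of a few exons, so the label is used as given and the groups are the libraries labelled HIF2A cKO. Uterine identity genes were present in all groups, with Hoxa10 at 179 FPKM in WT and 105 in HIF2A cKO at diestrus. The diestrus libraries numbered 3 stood apart in both genotypes: their 7 endothelial markers summed to 244 and 201 FPKM against 136 to 155 in the other diestrus libraries, and their 7 epithelial markers to 342 and 409 against 435 to 878.

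The promoters of 4 members are shown for their place in the results. Efna3 had the largest cycle rise, Efna4 lies beside it and rose with it, Epha3 had the largest fall in HIF2A cKO, and Epha8 the largest genotype difference at diestrus. Epha3 reached 1 FPKM only at diestrus and Epha8 only in WT diestrus libraries. Each line gives the 250 bases upstream of a RefSeq start, read 5′ to 3′ on the minus strand of GRCm38.p6, with ACGTG or GCGTG on either strand in capitals, the letters of the core that HIF proteins are known to bind. The regions are chr3:89322940-89323189 for Efna3, chr3:89338029-89338278 for Efna4, chr16:63864176-63864425 for Epha3 and chr4:136956817-136957066 for Epha8.
Efna3: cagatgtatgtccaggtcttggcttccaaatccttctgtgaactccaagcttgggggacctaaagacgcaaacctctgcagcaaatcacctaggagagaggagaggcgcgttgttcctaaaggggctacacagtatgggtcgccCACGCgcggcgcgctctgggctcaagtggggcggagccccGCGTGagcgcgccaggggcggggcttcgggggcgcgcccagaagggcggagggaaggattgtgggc
Efna4: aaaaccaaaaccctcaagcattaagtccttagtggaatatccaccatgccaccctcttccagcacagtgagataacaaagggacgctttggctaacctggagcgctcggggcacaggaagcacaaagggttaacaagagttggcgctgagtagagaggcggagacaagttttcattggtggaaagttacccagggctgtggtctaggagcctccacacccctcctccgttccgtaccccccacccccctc
Epha3: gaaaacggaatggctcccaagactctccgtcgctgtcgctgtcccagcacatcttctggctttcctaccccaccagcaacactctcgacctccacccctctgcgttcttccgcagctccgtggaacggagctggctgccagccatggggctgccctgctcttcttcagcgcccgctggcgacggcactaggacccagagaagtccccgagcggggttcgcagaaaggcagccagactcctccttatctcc
Epha8: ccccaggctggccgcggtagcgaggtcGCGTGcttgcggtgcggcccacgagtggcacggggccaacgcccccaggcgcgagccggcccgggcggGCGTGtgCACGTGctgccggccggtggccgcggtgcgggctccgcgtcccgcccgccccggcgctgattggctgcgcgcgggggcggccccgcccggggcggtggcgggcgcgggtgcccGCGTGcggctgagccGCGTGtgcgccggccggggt

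The core was matched 2 times in this Efna3 window and 6 times in that of Epha8, where the palindrome counts on both strands, and 0 times in those of Efna4 and Epha3. A further RefSeq start of Efna3, with the window chr3:89321769-89322018, had 3 matches. RefSeq entries were found for 50 of the 57 members, with 66 promoters, and 29 of these (43.9%) held ACGTG or GCGTG, against 38.6% of the 32851 mouse promoters of the same length. On either strand, AGGTCA, a hexamer that estrogen receptors bind in pairs, was in 10.6% of the members' promoters and 14% of all. The GC box GGGCGG was in 71.2% of the members' promoters and 32.7% of all, and TATAAA in 3.03% and 12.4%. A match describes the letters in this window only.

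Together the 57 members summed to 531 ± 36.2 FPKM (SD, n = 4) in WT at diestrus, 578 ± 18.9 (n = 3) in WT at estrus, 551 ± 35.8 in HIF2A cKO at diestrus and 607 ± 13.3 in HIF2A cKO at estrus. FPKM is per length, so levels can be set side by side between genes. At WT diestrus the secreted ligand Sema3c (48.2 FPKM) and Plxnb2 (47.6), the receptor for several class 4 semaphorins, had the highest means, ahead of the receptor Ephb4 (37.8), the transmembrane semaphorin Sema5a (28.8) and the ligand Efnb2 (26). Plxnb2 had the highest mean in the other 3 groups (54.2 to 64.7), and at estrus Efnb2 came next, at 43.3 in WT and 42.4 in HIF2A cKO. Efnb2 and Ephb4, which bind each other and are known from the border of arteries and veins, were the leading ephrin and the leading Eph receptor in each group mean. EphB receptors summed to 73.4 to 75.6 FPKM in the 4 group means and EphA receptors to 14.6 to 16.8, so the EphB sum was the higher in each group. Of the Slits, Slit3 had the highest mean in each group. Robo1 had group means of 9.75 to 15.6 FPKM and Robo2 of 10.6 to 15.1.

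**Figure D1:**
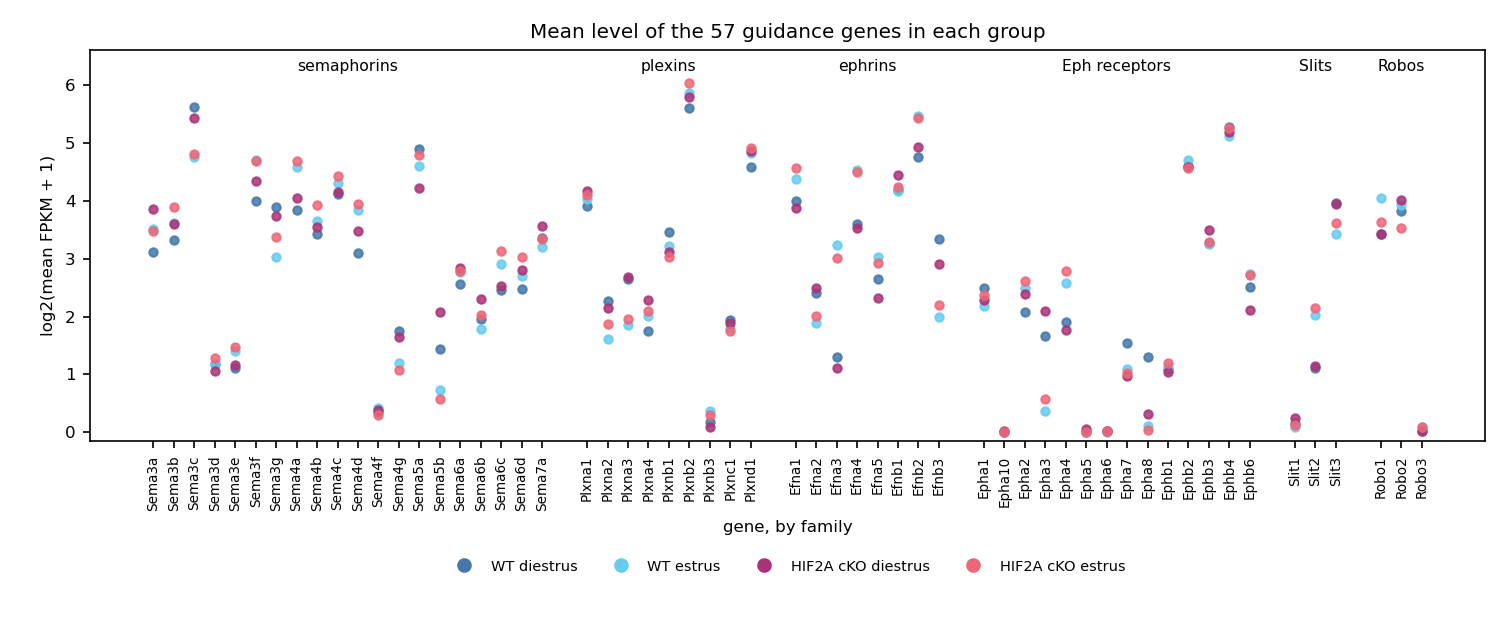
Mean level of the 57 genes in the 4 groups, by family, as log2 of the mean FPKM + 1. Plxnb2 and Ephb4 are among the highest in every group, and the 7 genes that reached 1 FPKM in no library sit at the bottom.

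Of the 57 members, 50 passed the filter of at least 1 FPKM in at least 3 libraries and were tested. The other 7, Epha5, Epha6, Epha10, Plxnb3, Robo3, Sema4f and Slit1, did not reach 1 FPKM in any library. Epha8 passed only through the WT diestrus group, and Epha3 and Sema5b only through diestrus libraries, so these 3 had to stand higher there. Differences are given on the log2(FPKM + 1) scale with their standard error and with the p-value of limma adjusted over all 14278 genes tested (Benjamini-Hochberg); this scale understates the change of low genes. In bulk tissue, fewer cells of a type and less RNA per cell cannot be told apart.

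From diestrus to estrus in WT uterus, the ephrin-A ligands Efna3 and Efna4, the ligand Slit2, the semaphorins Sema4d and Sema3f and the receptor Epha4 rose, while Efnb3, Epha3, Epha8 and the secreted semaphorins Sema3c and Sema3g fell. Of the 50 tested members, 15 were higher at estrus and 12 lower, 54% in all, where 57.2% of all genes tested passed. Of all genes 23% were higher and 34.1% lower. The 12 include Epha3, Epha8 and Sema5b, which entered the test only through diestrus libraries. The falls of Epha3, Epha8 and Sema5b are thus no support for a cycle change. The median difference was 0.13 over the members and -0.09 over all genes. In 29 members (58%) the groups did not overlap, against 61.1% of all genes. In HIF2A cKO, 16 members were higher and 8 lower, 48% in all, against 62% of all genes (25.5% higher, 36.5% lower), with a median of 0.07 against -0.08; the groups did not overlap in 30 members (60%), against 63.1%. The share of members called was thus near the background in WT and below it in HIF2A cKO.

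Among the ephrins, the ligands of Eph receptors, 5 of 8 were higher at estrus and 2 lower in WT (87.5%, against 57.2% of all genes). In HIF2A cKO 4 were higher and 2 lower (75%, against 62%). Efna3 had the largest rise of all members. It read 2.15, 0.688, 0.494 and 2.51 FPKM in the WT diestrus libraries and 8.56, 8.6 and 8.16 at estrus, and in HIF2A cKO 1.17, 1.43, 0.9 and 1.16 at diestrus and 6.43, 6.37 and 8.35 at estrus. Every estrus library stood above every diestrus library, with a difference of 2.04 ± 0.251 (SE; adjusted p = 3.15e-05) in WT and 1.89 ± 0.251 (adjusted p = 3.38e-05) in HIF2A cKO.

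Efna4 read 13.5, 9.2, 8.86 and 12.9 FPKM at WT diestrus and 24.2, 22.2 and 20.3 at WT estrus, a difference of 0.96 ± 0.171 (adjusted p = 0.000472). The HIF2A cKO libraries went from 12.2, 12, 7.22 and 11 to 21, 22.2 and 21.4, a difference of 0.98 ± 0.171 (adjusted p = 0.00028). Efna1, an ephrin-A also induced in blood vessels by inflammatory signals, went from 14.9 ± 1.4 to 19.7 ± 0.305 FPKM in WT (0.38, adjusted p = 0.0133) and from 13.6 ± 2.3 to 22.7 ± 2.34 in HIF2A cKO (0.71, adjusted p = 0.000184). These 3 ephrin-A genes are neighbours: they lie on the minus strand of chromosome 3 between 89271733 and 89338028 (mm10, GENCODE M21), a stretch of 66.3 kb with gaps of 32.8 kb between Efna1 and Efna3 and 10.4 kb between Efna3 and Efna4. All 3 rose in both genotypes with no overlap of groups, and no other tested gene of the table lay in that stretch. Efna3 and Efna4 each overlap, in an exon, a gene model on the opposite strand that is not in the table (Gm15998 and 4731419I09Rik), and whether strand was used in counting is not stated.

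Efna5, on chromosome 17, also rose, by 0.40 (adjusted p = 0.00507) in WT and 0.60 (adjusted p = 0.000222) in HIF2A cKO. Efna2, on chromosome 10, went the other way, from 4.3 ± 0.32 to 2.7 ± 0.34 FPKM in WT and from 4.66 ± 0.68 to 3.03 ± 0.232 in HIF2A cKO, and fell in both (-0.52, adjusted p = 0.000822, and -0.48, adjusted p = 0.00112). The 5 ephrin-A genes together summed to 37 ± 4.4 FPKM at WT diestrus and 60.2 ± 2.46 at estrus, and to 34 ± 2.2 and 61 ± 2.52 in HIF2A cKO. The lowest estrus sum was 57.7 and the highest diestrus sum 41.6.

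Efnb3, an ephrin-B known from the midline of the nervous system, read 8.3, 7.82, 10.9 and 9.66 FPKM at WT diestrus and 2.95, 2.98 and 3.03 at estrus, and fell by 1.34 (adjusted p = 0.000563). In HIF2A cKO it read 4.37, 4.33, 12.1 and 5.26 at diestrus and 3.54, 3.79 and 3.42 at estrus, a fall of 0.60 (adjusted p = 0.0478) that was lost in 7 alternatives, such as with the 7 HIF2A cKO libraries alone (adjusted p = 0.124). The HIF2A cKO diestrus library numbered 3 stood far above the other libraries of its group, and without it the fall was 0.30 and still called (adjusted p = 0.0284). Efnb2 rose in WT, from 26 ± 9.82 to 43.3 ± 1.81 FPKM (0.79, adjusted p = 0.014), and stood at 29.5 ± 5.69 and 42.4 ± 1.28 in HIF2A cKO, where it did not pass (0.53, adjusted p = 0.0733). The HIF2A cKO groups of Efnb2 did not overlap. It was called there in 7 of 17 alternatives, such as with the 7 HIF2A cKO libraries alone (adjusted p = 0.0173). Efnb1 did not pass in either genotype and held between 13.9 and 21.4 FPKM in all libraries.

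**Figure D2:**
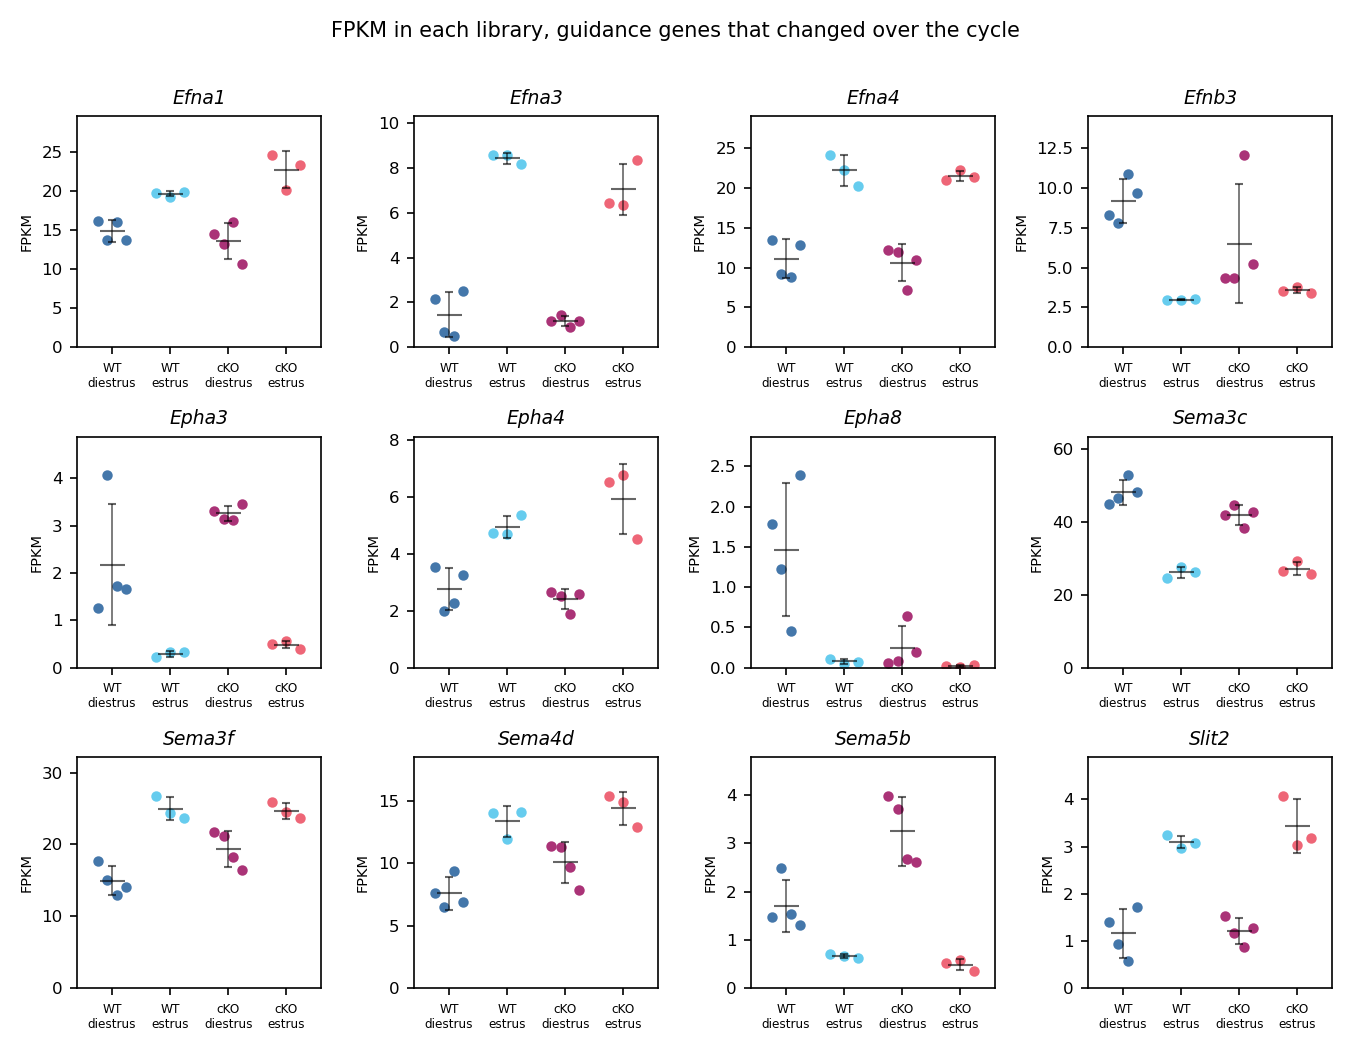
FPKM of 12 members in each library, with the mean (line) and SD (bar) of the 4 groups. Efna1, Efna3, Efna4 and Slit2 sit higher at estrus in both genotypes, and Epha3, Sema3c and Sema5b sit lower.

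Of the 11 tested Eph receptors, 2 were higher and 3 lower at estrus in WT (45.5%, against 57.2% of all genes). In HIF2A cKO 2 were higher and 1 lower (27.3%, against 62%). Epha4, which can bind ephrins of both classes, read 3.53, 1.99, 2.29 and 3.25 FPKM at WT diestrus and 4.75, 4.71 and 5.38 at estrus, and rose by 0.68 (adjusted p = 0.0029). The HIF2A cKO values went from 2.65, 2.54, 1.89 and 2.58 to 6.52, 6.78 and 4.52, and it rose by 1.01 (adjusted p = 0.000127). The groups did not overlap in either genotype.

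Epha3 read 1.27, 4.07, 1.72 and 1.66 FPKM at WT diestrus and 0.221, 0.332 and 0.329 at estrus (-1.23, adjusted p = 0.000282). In HIF2A cKO it read 3.32, 3.14, 3.12 and 3.46 at diestrus and 0.511, 0.559 and 0.405 at estrus (-1.52, adjusted p = 3.72e-05), the largest fall of any member there. Every diestrus library was above 1 FPKM and every estrus library below it. Epha3 thus entered the test only through diestrus libraries, and its falls are no support for a cycle change. Epha8 was above 1 FPKM in 3 libraries, all of WT diestrus, where it read 1.78, 1.23, 0.458 and 2.39; at WT estrus it read 0.112, 0.048 and 0.078 (-1.13, adjusted p = 0.00134). Its HIF2A cKO values were 0.062, 0.081, 0.637 and 0.199 at diestrus and 0.027, 0.012 and 0.03 at estrus, and the difference there did not pass (-0.26, adjusted p = 0.354). As Epha8 entered the test only through WT diestrus libraries, its WT fall is no support for a cycle change.

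Epha2, an EphA receptor of epithelia, went from 3.24 ± 0.31 to 4.63 ± 0.705 FPKM in WT (0.41, adjusted p = 0.0333), a call lost without either of 3 WT diestrus libraries (numbers 2, 3 and 4) or either of 2 WT estrus libraries (numbers 1 and 4), with adjusted p up to 0.143. Epha1 fell by 0.31 in WT (adjusted p = 0.0432), a call lost in 11 of the 16 alternatives run (adjusted p up to 0.159), among them without WT diestrus 1 or 3 or WT estrus 2 or 4. Its exons overlap Zyx on the opposite strand, which stood at 131 FPKM. Reads in that overlap, whose extent was not measured, cannot be told apart from those of Zyx unless strand was used. Ephb6, an Eph receptor that lacks kinase activity, stood at 4.71 ± 0.728 and 5.67 ± 0.684 FPKM in WT (0.23, adjusted p = 0.195) and rose in HIF2A cKO from 3.31 ± 0.919 to 5.56 ± 0.233 (0.63, adjusted p = 0.00231). The other EphB receptors, Ephb1, Ephb2, Ephb3 and Ephb4, and Epha7 did not pass in either genotype; without WT diestrus 3 Epha7 was called in WT (adjusted p = 0.0141).

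The semaphorins moved in both directions: of 19 tested, 5 were higher and 4 lower at estrus in WT (47.4%, against 57.2% of all genes). In HIF2A cKO 8 were higher and 3 lower (57.9%, against 62%). Sema3c, a secreted ligand known from heart and vessel development, had the smallest p-value of the members in WT. It read 44.9, 46.7, 52.9 and 48.3 FPKM at WT diestrus and 24.6, 27.7 and 26.3 at estrus, and fell by 0.86 (adjusted p = 2.04e-06). Its HIF2A cKO values went from 42, 44.8, 38.4 and 42.7 to 26.6, 29.2 and 25.8, and it fell by 0.61 (adjusted p = 1.76e-05).

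Sema3g, a class 3 semaphorin of arterial endothelium, read 15.5, 12, 11.8 and 16.2 FPKM at WT diestrus and 7.51, 6.64 and 7.43 at estrus and fell by 0.85 (adjusted p = 0.001). In HIF2A cKO it stood at 12.4 ± 3.42 and 9.42 ± 1.18 and did not pass (-0.33, adjusted p = 0.105), but did without HIF2A cKO diestrus 1 (adjusted p = 0.0462). Sema3f, a ligand of neuropilin 2, rose by 0.71 (adjusted p = 0.000143) in WT, from 14.9 ± 2.03 to 25 ± 1.66 FPKM, and by 0.34 (adjusted p = 0.0145) in HIF2A cKO, from 19.4 ± 2.49 to 24.7 ± 1.07. The HIF2A cKO call of Sema3f was lost without HIF2A cKO estrus 1 (adjusted p = 0.0561). Sema3b, its neighbour at a gap of 72.3 kb, rose by 0.30 (adjusted p = 0.0214) and 0.28 (adjusted p = 0.0246), with the WT call lost without WT diestrus 1 or 2 or WT estrus 1 or 4 (adjusted p up to 0.0682) and the HIF2A cKO call without HIF2A cKO diestrus 4 or estrus 2 (adjusted p up to 0.131). The class 3 semaphorins summed to 96.1 ± 1.83 FPKM at WT diestrus and 82.9 ± 0.783 at estrus.

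Among the transmembrane semaphorins of class 4, Sema4d, a ligand of plexin-B1 known from immune cells, read 7.59, 6.46, 9.4 and 6.89 FPKM at WT diestrus and 14, 11.9 and 14.1 at estrus and rose by 0.75 (adjusted p = 0.000477). The libraries labelled HIF2A cKO went from 11.4, 11.3, 9.66 and 7.88 to 15.4, 14.9 and 12.9, and it rose by 0.49 (adjusted p = 0.00664). The leukocyte marker sum was also higher at estrus, as given with the other markers, and its part in the values of Sema4d was not tested. Sema4b rose by 0.40 (adjusted p = 0.00127) in HIF2A cKO and by 0.23 (adjusted p = 0.0336) in WT, a WT call lost without WT diestrus 2, 3 or 4 or WT estrus 1 or 4 (adjusted p up to 0.123). Sema4c passed in HIF2A cKO (0.29, adjusted p = 0.0167), a call lost without HIF2A cKO estrus 1 (adjusted p = 0.0855), and Sema4g fell by 0.53 in each genotype (adjusted p = 0.0142 and 0.0124). Sema4a read 8.45, 19.1, 19.7 and 6.15 FPKM at WT diestrus and 23.5, 22.2 and 23.6 at estrus. Its WT groups did not overlap, but the spread at diestrus was wide and the difference of 0.89 ± 0.397 did not pass (adjusted p = 0.0706). It was called without WT diestrus 2 (1.10, adjusted p = 0.0384) or 3 (1.12, adjusted p = 0.031). In HIF2A cKO Sema4a read 15, 13.7, 26.7 and 7.13 at diestrus and 25.3, 24.7 and 24.1 at estrus, with the diestrus library numbered 3 above every estrus library (0.76, adjusted p = 0.114). Without that library the difference was 1.05 and called (adjusted p = 0.0254).

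Sema5b, a transmembrane semaphorin with thrombospondin repeats, read 1.47, 2.5, 1.54 and 1.31 FPKM at WT diestrus and 0.713, 0.669 and 0.629 at estrus (-0.68, adjusted p = 0.00224). In HIF2A cKO it read 3.99, 3.71, 2.67 and 2.62 at diestrus and 0.532, 0.58 and 0.357 at estrus (-1.50, adjusted p = 4.1e-06). Sema5b entered the test only through diestrus libraries, so these falls are no support for a cycle change. Its relative Sema5a had no cycle call in WT, at 28.8 ± 8.71 and 23.3 ± 1.42 FPKM (-0.24, adjusted p = 0.385), and rose in HIF2A cKO from 17.7 ± 5.54 to 26.7 ± 1.27 (0.61, adjusted p = 0.036). That rise was lost on leaving out each of 6 of the 7 HIF2A cKO libraries in turn (all but diestrus 3; adjusted p up to 0.0935), and its groups overlapped.

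Among class 6, Sema6c rose in HIF2A cKO (0.65, adjusted p = 0.0205; lost without estrus 1 or 4, adjusted p up to 0.0567) and not in WT (0.48, adjusted p = 0.0757). Sema6d, a ligand of plexin-A1, passed narrowly in both, by 0.23 (adjusted p = 0.0498) and 0.22 (adjusted p = 0.0494). The WT call of Sema6d was lost without WT diestrus 1 or 2 or WT estrus 1 or 4 and the HIF2A cKO call without HIF2A cKO diestrus 2, 3 or 4 or HIF2A cKO estrus 1 or 2. Sema3a, Sema3d, Sema3e, Sema6a, Sema6b and Sema7a, the lipid-anchored semaphorin, did not pass in either genotype with all libraries. Sema3a was called lower at estrus in HIF2A cKO without diestrus 3 (-0.58, adjusted p = 0.00429). With 1 library left out, Sema3d was called in HIF2A cKO without diestrus 4, Sema3e in HIF2A cKO without diestrus 4 or estrus 4 and in WT without estrus 1, Sema6a in WT without estrus 4 and Sema6c in WT without diestrus 3 (adjusted p between 0.0118 and 0.0455).

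Of the 8 tested plexins, the semaphorin receptors, 1 was higher and 2 were lower at estrus in WT (37.5%, against 57.2% of all genes). In HIF2A cKO 1 was higher and 1 lower (25%, against 62%). Plxna3 read 4.95, 5.21, 6.35 and 4.47 FPKM at WT diestrus and 2.44, 2.91 and 2.5 at estrus and fell by 0.78 (adjusted p = 0.00012). From diestrus to estrus in HIF2A cKO it went from 5.86, 5.88, 5.45 and 4.4 to 3.14, 3.06 and 2.5 and fell by 0.71 (adjusted p = 0.000172), with no overlap in either genotype. Plxna2 fell by 0.65 in WT (adjusted p = 0.00138), from 3.84 ± 0.782 to 2.05 ± 0.0885 FPKM, and stood at 3.45 ± 0.225 and 2.66 ± 0.623 in HIF2A cKO (-0.30, adjusted p = 0.0757). Plxnb2 rose by 0.27 in WT (adjusted p = 0.015), from 47.6 ± 4.14 to 57.3 ± 1.42 FPKM, and by 0.26 in HIF2A cKO (adjusted p = 0.0165), from 54.2 ± 5.6 to 64.7 ± 0.815; these calls were lost without WT estrus 1 (adjusted p = 0.0527) and without HIF2A cKO estrus 2 (adjusted p = 0.0512). Plxna1, Plxna4, Plxnb1, Plxnc1 and Plxnd1, the receptor of Sema3e in vessels, did not pass in either, though without WT diestrus 3 Plxnd1 was called in WT (adjusted p = 0.0186).

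Slit2 read 1.41, 0.936, 0.571 and 1.73 FPKM at WT diestrus and 3.24, 2.98 and 3.08 at estrus and rose by 0.96 (adjusted p = 0.000413). Its HIF2A cKO libraries went from 1.53, 1.17, 0.873 and 1.28 to 4.08, 3.04 and 3.18, and it rose by 1.00 (adjusted p = 0.000212). Slit3, the more abundant of these ligands, read 11.3, 13.6, 20.5 and 12.9 FPKM at WT diestrus and 11.1, 8.58 and 9.76 at estrus and fell by 0.50 (adjusted p = 0.0205), a call lost without WT estrus 2 or 4 (adjusted p up to 0.0867) and with the 7 WT libraries alone (adjusted p = 0.0554). In HIF2A cKO Slit3 did not pass (-0.33, adjusted p = 0.0991).

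Robo1, a Slit receptor, read 12.1, 6.01, 10.3 and 10.7 FPKM at WT diestrus and 15.5, 16.4 and 14.9 at estrus and rose by 0.66 (adjusted p = 0.00567). In HIF2A cKO it read 10.4, 10.4, 7.74 and 10.6 at diestrus and 11.3, 12.1 and 10.6 at estrus and did not pass (0.21, adjusted p = 0.318). Robo2 read 13.1, 10, 14.8 and 14.3 at WT diestrus and 13.8, 17.3 and 11.7 at estrus, which overlapped (0.12, adjusted p = 0.535). In HIF2A cKO Robo2 went from 15.4, 18.3, 12.5 and 14.2 to 9.37, 10.9 and 11.5 and fell by 0.46 (adjusted p = 0.0198), a call lost without HIF2A cKO diestrus 2 or estrus 1 (adjusted p up to 0.0858).

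The cycle changes of the genotypes come from different libraries, so their calls can be set against each other. Both rest on the spread pooled over all 4 groups, so the calls are not independent. Of the 50 tested members, 12 were higher at estrus in both genotypes (24%, against 18.8% of all genes tested) and 7 lower in both (14%, against 28.2%). The 12 were Efna1, Efna3, Efna4, Efna5, Epha4, Plxnb2, Sema3b, Sema3f, Sema4b, Sema4d, Sema6d and Slit2, and the 7 were Efna2, Efnb3, Epha3, Plxna3, Sema3c, Sema4g and Sema5b. Of the 7, Epha3 and Sema5b entered the test only through diestrus libraries, so they had to stand lower at estrus. None of the 50 was called in opposite directions. In WT and not in HIF2A cKO, 3 were called higher (6%, against 4.08% of all genes) and 5 lower (10%, against 5.9%). In HIF2A cKO and not in WT, 4 were higher (8%, against 6.59%) and 1 lower (2%, against 8.24%), and 18 were called in neither (36%, against 28%). Passing in a single genotype does not show a difference between them, and the test of that difference is the interaction, in which the WT cycle change is subtracted from the HIF2A cKO cycle change. By limma 0 of 50 members were called in it, where 0.035% of all genes were called (0.014% higher and 0.021% lower). At an unadjusted p under 0.05 there were 8 members. All genes were not counted at that threshold, so the count shows nothing particular to the members. Sema5b had the smallest adjusted p in the interaction (-0.82 ± 0.215, adjusted p = 0.128). With the replicate number as a block it was called (-0.82, adjusted p = 0.0382), as 1 of 50 members (2%), where 3.24% of all genes were called.

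Without the HIF2A cKO diestrus library numbered 3, the interaction was called for 5 members (3 higher, Efnb3, Sema3g and Sema5a, and 2 lower, Sema3a and Sema5b), 10% of those tested, where 8.27% of all genes were called in the same fit. Without both diestrus libraries numbered 3 it was also called for 5 (3 higher, Efnb3, Epha8 and Sema3g, and 2 lower, Sema3a and Sema5b), where 8.36% of all genes were called. Of these, Epha8 entered the test only through WT diestrus libraries, so its call is no support for an interaction. Sema5b was called as well without WT diestrus 2 (-0.95, adjusted p = 0.0359), where 2.09% of all genes were. These shares of members were close to those of all genes.

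**Figure D3:**
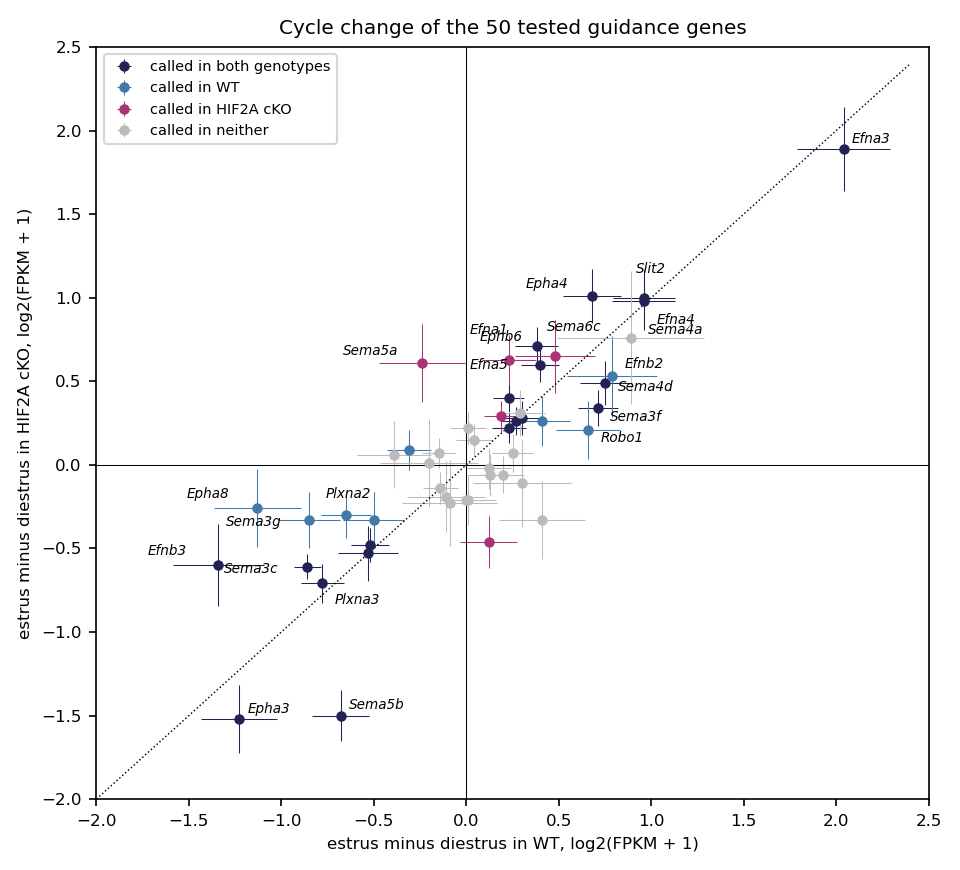
Estrus minus diestrus in WT (x) and in HIF2A cKO (y) on the log2(FPKM + 1) scale for the 50 tested members, with SE as bars and the dotted line where both are equal. Efna3 lies at the upper end and Epha3 and Sema5b at the lower end.

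Markers of cell types moved over the cycle as well. The 7 epithelial markers summed to 342 to 558 FPKM at WT diestrus and 910 to 1100 at estrus, and to 409 to 878 and 1160 to 1290 in HIF2A cKO; 7 of 7 were higher at estrus in WT and 6 of 7 in HIF2A cKO. The 4 markers of dividing cells summed to 69.3 to 82.3 at WT diestrus and 4.26 to 6.24 at estrus, and 4 of 4 fell in each genotype. Of the 6 stromal markers 5 fell in WT and 4 in HIF2A cKO, where 1 rose, with sums of 1540 to 1840 and 1410 to 1570 in WT. The 6 nerve and Schwann cell markers summed to 8.28 to 10.9 at WT diestrus and 14 to 21 at estrus, with 2 of 3 tested markers higher. The 5 leukocyte markers summed to 100 to 136 at WT diestrus and 170 to 191 at estrus, and to 89.7 to 113 and 179 to 232 in HIF2A cKO, with 2 of 4 tested markers higher and 0 lower in each genotype. The 3 mesothelial markers summed to 25.4 to 30.6 at diestrus and 44 to 55 at estrus in HIF2A cKO, where 3 of 3 were higher, and to 21.1 to 47.8 and 32 to 32.9 in WT, where 0 of 3 were called. Of 6 smooth muscle markers 1 was higher and 3 lower in each genotype, and of 7 endothelial markers 1 was higher and 3 lower in WT and 2 and 2 in HIF2A cKO. These were 66.7% and 57.1% of each list, where 57.2% of all genes were called in WT and 62% in HIF2A cKO. Of 4 uterine identity genes 3 were lower in WT and 4 in HIF2A cKO. Their sums went from 407 to 487 FPKM at diestrus to 208 to 221 at estrus in WT, and from 316 to 457 to 190 to 212 in HIF2A cKO. The part of all these markers in the cycle changes of the guidance genes was not tested.

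At diestrus, Sema5b, Sema3a, Sema3f, Sema6d and Sema3b were higher in the libraries labelled HIF2A cKO than in WT, and Epha8, Sema5a, Ephb6 and Efna5 were lower. These 9 calls were 5 higher and 4 lower of 50 (18%), where 23.9% of all genes passed (13.8% higher and 10% lower), with a median of 0.04 against 0.02. The groups did not overlap in 3 members (6%), Sema3c, Sema5b and Sema6d, against 15.8% of all genes. Semaphorins were 6 of the 9 calls and 19 of the 50 tested members. Of those 19, 5 were higher and 1 lower (31.6%, against 23.9% of all genes).

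Sema5b stood at 1.31 to 2.5 FPKM in WT and at 2.62 to 3.99 in HIF2A cKO, with no overlap (0.66 ± 0.141, adjusted p = 0.00824). Sema3a, a secreted repellent of axons, read 8.53, 8.76, 5.69 and 7.58 FPKM in WT and 17.7, 15.1, 7.21 and 14 in HIF2A cKO (0.70, adjusted p = 0.0333). Of the HIF2A cKO libraries of Sema3a, number 3 alone lay within the WT range. Sema6d read 4.24, 4.25, 4.95 and 4.9 in WT and 6.75, 6.12, 5.81 and 5.35 in HIF2A cKO, with no overlap (0.33, adjusted p = 0.0171). Sema3f (0.36, adjusted p = 0.0241) and Sema3b (0.28, adjusted p = 0.0472) were also higher, from the diestrus levels given above for Sema3f and from 9.03 ± 1.18 to 11.1 ± 1.04 FPKM for Sema3b.

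Epha8 had the largest difference, at 1.47 ± 0.821 FPKM in WT and 0.245 ± 0.268 in HIF2A cKO (-0.94, adjusted p = 0.0109), though the lowest WT library (0.458) lay under the highest HIF2A cKO library (0.637). Epha8 entered the test only through WT diestrus libraries, so it had to stand higher there. Its call is thus no support for a genotype difference. Sema5a read 31.2, 17.5, 27.8 and 38.5 FPKM in WT and 13.6, 14.2, 25.6 and 17.2 in HIF2A cKO (-0.66, adjusted p = 0.0411). Ephb6 read 5.26, 3.66, 5.14 and 4.78 in WT and 3.09, 2.7, 4.66 and 2.77 in HIF2A cKO (-0.42, adjusted p = 0.0406). Efna5 read 5.83, 4.71, 4.39 and 6.13 in WT and 4.04, 3.79, 3.67 and 4.55 in HIF2A cKO (-0.32, adjusted p = 0.0303). In Sema5a, Ephb6 and Efna5 the genotypes overlapped.

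**Figure D4:**
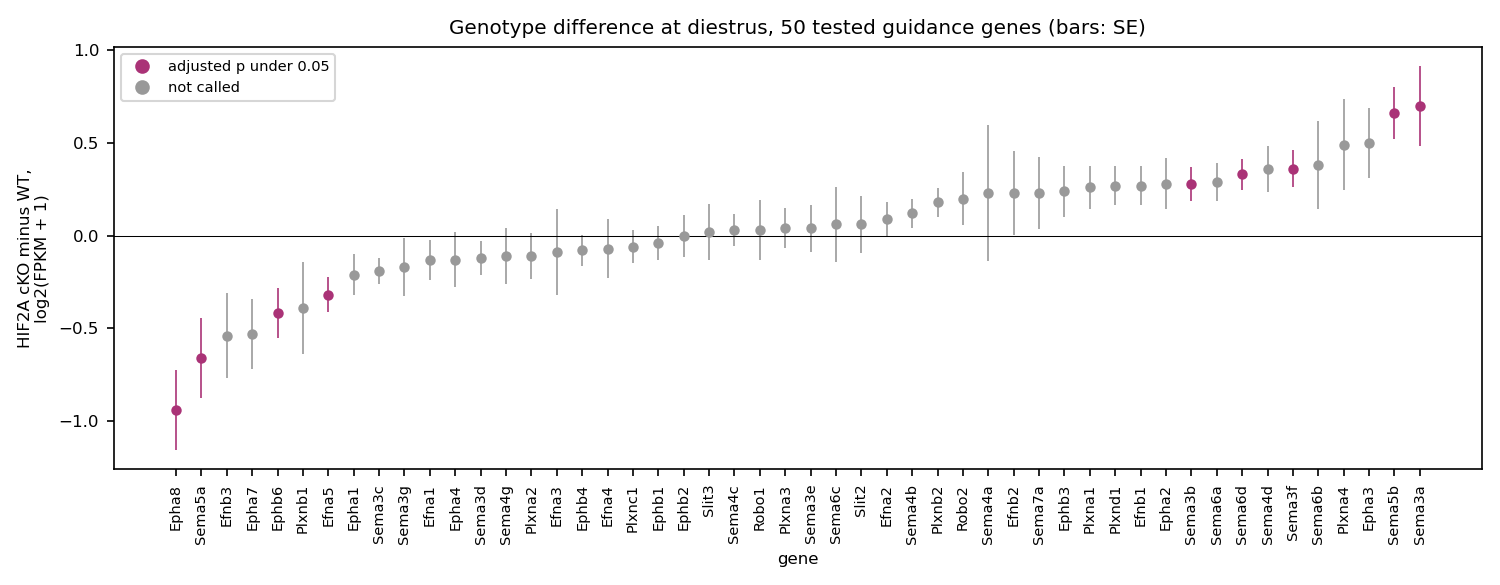
HIF2A cKO minus WT at diestrus on the log2(FPKM + 1) scale for the 50 tested members, sorted, with SE as bars. The 9 members past the threshold are coloured, from Epha8 at the left to Sema3a at the right.

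These diestrus calls rested on the spread pooled over all 4 groups. With the 8 diestrus libraries alone, 0 members were called by limma (adjusted p of the 9 between 0.0587 and 0.137), where 2.81% of all genes were called. At an unadjusted p under 0.05 there were 7 higher and 6 lower. All genes were not counted at that threshold, so these counts show nothing particular to the members. Libraries numbered 3 deviated together at diestrus (correlation of deviations 0.622), and those of the other numbers less (0.115 to 0.321). With the library number as a replicate block 10 members were higher and 8 lower in all 14 libraries (36%, against 33.5% of all genes). In the diestrus libraries alone 3 were higher with that block (Sema3a, Sema3f and Sema5b) and 0 lower (6%, against 14.2%). The share of members was thus near that of all genes in the fit with all libraries and below it in the other.

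Leaving out 1 library moved both the count of members and that of all genes. Without WT diestrus 1, 2 members were higher and 1 lower (6%, against 14.6% of all genes), and without WT diestrus 4, 4 and 1 (10%, against 15.4%). There was 1 higher and 1 lower (4%) without HIF2A cKO diestrus 1 or 2, against 12.4% and 10.4% of all genes. Without HIF2A cKO diestrus 3 there were 6 and 7 (26%, against 35.2%), and without both libraries numbered 3 there were 9 and 8 (34%, against 32.2%).

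Of the 9 calls, those of Epha8 and Sema5b held with each diestrus library left out in turn. The filter was set on all 14 libraries and Epha8 passed it only through WT diestrus, so its hold is no support for a difference. The calls of Sema3a, Sema5a and Ephb6 were each lost without WT diestrus 1, 3 or 4 or HIF2A cKO diestrus 1, 2 or 4, and that of Sema3b without WT diestrus 1, 2 or 4 or HIF2A cKO diestrus 1, 2 or 3 (adjusted p up to 0.13). That of Efna5 was lost without WT diestrus 1 or 4, that of Sema3f without WT diestrus 3 or 4, and that of Sema6d without WT diestrus 1, and all 3 without HIF2A cKO diestrus 1 or 2. Calls were gained by Efnb3 (-0.84, adjusted p = 0.00028), Epha2, Plxna4 and Plxnb1 without HIF2A cKO diestrus 3, by Epha3 without WT diestrus 2 and by Efnb1 and Plxna1 without WT diestrus 4. Plxnd1 and Sema4d were called without WT diestrus 3 or HIF2A cKO diestrus 4, Sema6a and Sema6b without WT diestrus 3, Plxnb2 without HIF2A cKO diestrus 4, and Epha7 without WT diestrus 2 or 3 or HIF2A cKO diestrus 3 or 4.

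At diestrus the epithelial marker sum was 342 to 558 FPKM in WT and 409 to 878 in HIF2A cKO, with 1 of 7 markers higher, and the markers of dividing cells summed to 69.3 to 82.3 and 92.3 to 130, with 4 of 4 higher. Of 6 stromal markers 2 were higher and 2 lower, of 4 uterine identity genes 1 and 2, and of 7 endothelial markers 1 and 0. Of 3 tested nerve and 2 tested ovary and oviduct markers 1 each was lower, and 0 smooth muscle, leukocyte or mesothelial markers were called. Of all genes 23.9% were called. Their part in the genotype differences was not tested.

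The libraries numbered 3 were the highest of their diestrus group in both genotypes for 13 of the 50 members (26%, against 18% of all genes) and the lowest in both for 10 (20%, against 19.9%). Plxnb1, the receptor of Sema4d, read 14.9 FPKM in the WT library numbered 3 against 7.86 to 8.85 in the other WT libraries, and 13.6 against 5.15 to 6.05 in HIF2A cKO. Efnb3 and Sema7a were highest there too, with Sema7a at 14.4 and 15.1 FPKM against 6.68 to 8.22 and 8.83 to 10.1. Efnb2 was lowest there, at 14.2 and 21.5 FPKM, against 22.8 to 37.2 and 29.3 to 33.9. Endothelial marker sums were highest and epithelial marker sums lowest in the same libraries, as given above, and their part in these values was not tested.

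**Figure D5:**
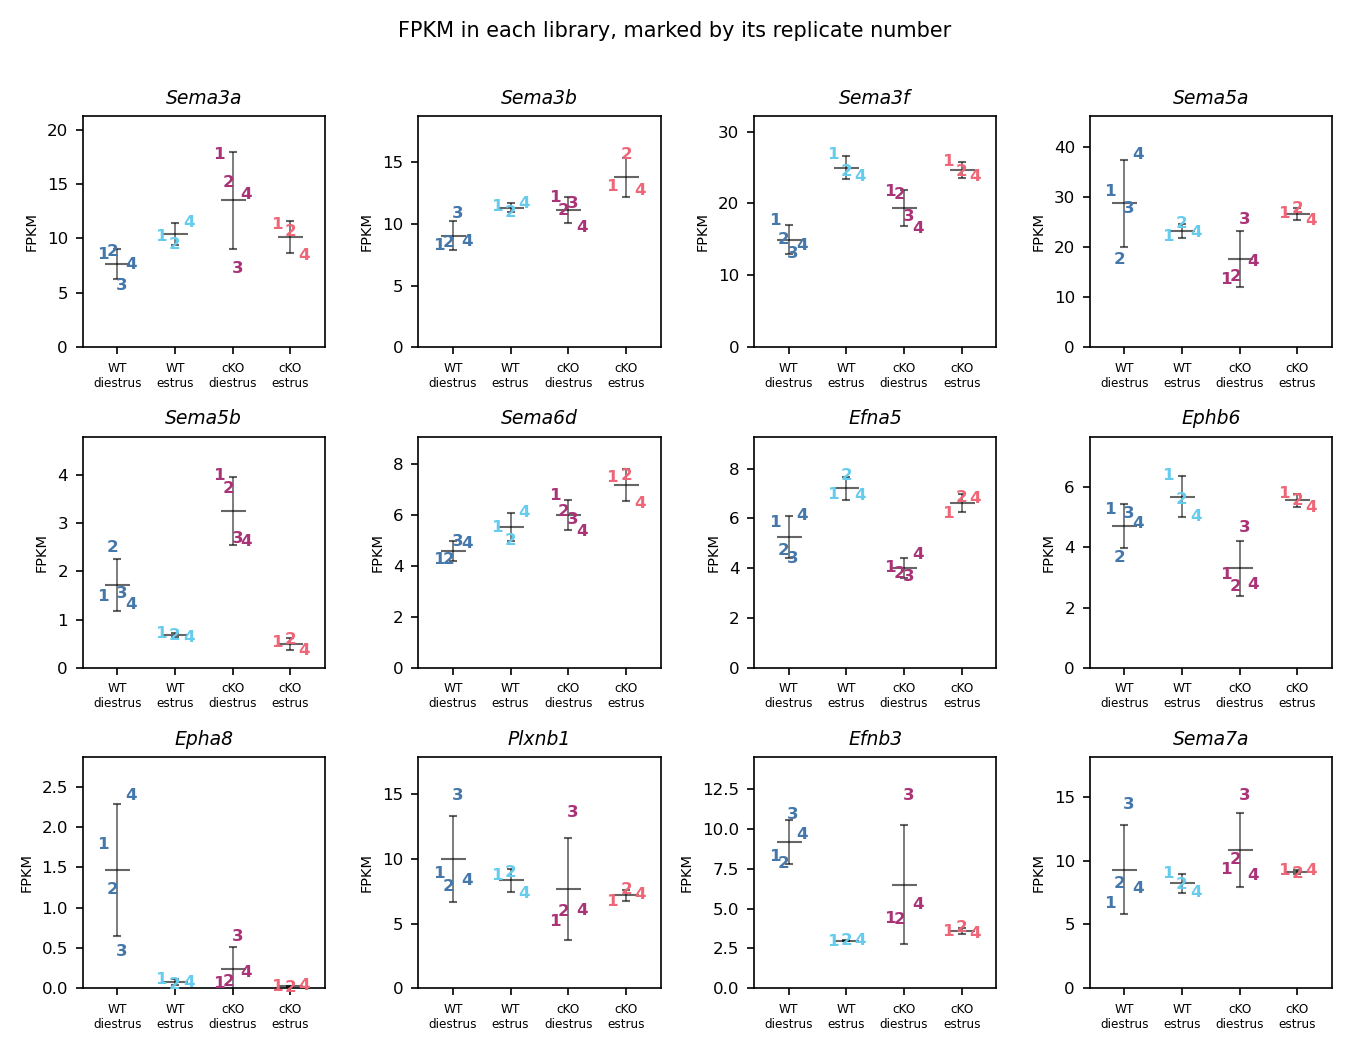
FPKM of 12 members in each of the 14 libraries, drawn as the library's number, with the mean (line) and SD (bar) of each group; the 12 are the 9 called between genotypes at diestrus and Plxnb1, Efnb3 and Sema7a. The diestrus libraries numbered 3 are the highest for Plxnb1, Efnb3 and Sema7a in both genotypes.

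At estrus, 0 of 50 members differed between genotypes by limma, where 0.105% of all genes were called (0.07% higher and 0.035% lower). At an unadjusted p under 0.05 there were 5 members. All genes were not counted at that threshold, so the count shows nothing particular to the members. The smallest adjusted p was 0.403, for Sema6d, which read 5.51, 5.01 and 6.08 FPKM in WT and 7.49, 7.57 and 6.44 in HIF2A cKO. Groups did not overlap in 20 members (40%), against 26.4% of all genes. Robo1 stood at 15.6 ± 0.735 FPKM in WT and 11.4 ± 0.736 in HIF2A cKO (-0.43, adjusted p = 0.645). With the estrus libraries alone Robo1 was called lower (adjusted p = 0.0279), where 2.33% of all genes were called, and also with the replicate block (adjusted p = 0.0459), where 0.967% were.

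The other genes of these pathways, in 5 lists, are read against the same background of 57.2% of all genes called over the cycle in WT and 62% in HIF2A cKO. Of 11 tested neuropilins and other co-receptors, 5 were higher and 2 lower at estrus in WT (63.6%), and 5 and 3 in HIF2A cKO (72.7%). Nrp1, the co-receptor of Sema3a, fell from 33.9 ± 4.54 to 18.4 ± 1.77 FPKM in WT (-0.84, adjusted p = 5.49e-05) and from 39.9 ± 5.06 to 18.8 ± 0.785 in HIF2A cKO (-1.04, adjusted p = 6.53e-06). Nrp2, the co-receptor of Sema3f, rose from 17 ± 5.05 to 24 ± 1.61 in WT (0.52, adjusted p = 0.0242) and from 12 ± 1.52 to 23.7 ± 0.557 in HIF2A cKO (0.93, adjusted p = 0.000553). Plxdc1, a plexin-domain protein of tumour endothelium, rose by 2.03 (adjusted p = 6.43e-07) and 1.89 (adjusted p = 6.7e-07).

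Of 19 tested effectors of semaphorins and plexins, 7 were higher and 4 lower in WT (57.9%) and 7 and 3 in HIF2A cKO (52.6%), with Crmp1, a collapsin response mediator, rising by 1.84 (adjusted p = 2.07e-05) and 1.66 (adjusted p = 2.84e-05). Of 18 effectors of Eph receptors, 5 were higher and 2 lower in WT (38.9%) and 6 and 3 in HIF2A cKO (50%), with the adaptor Grb7 rising by 1.46 (adjusted p = 0.000703) and 0.89 (adjusted p = 0.0126). Of 8 tested Slit and Robo partners, 1 was higher and 1 lower in WT (25%) and 1 and 2 in HIF2A cKO (37.5%), with Srgap1, a GTPase-activating protein that binds Robo1, rising by 0.89 (adjusted p = 0.000163) and 0.86 (adjusted p = 0.00015). Of 13 genes of the netrin system, another family of guidance cues, 5 were higher and 5 lower in WT (76.9%) and 4 and 4 in HIF2A cKO (61.5%); the ligand Ntn3 fell by 1.55 (adjusted p = 4.6e-07) and 1.29 (adjusted p = 1.19e-06) while Ntn4 rose by 0.83 (adjusted p = 0.000322) and 1.02 (adjusted p = 4.5e-05).

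Between genotypes at diestrus, 2 of the 11 co-receptors were higher, Kdr, the main VEGF receptor (0.53, adjusted p = 0.00798), and Ptk7, and 0 lower. Of the netrin system 1 was higher (Dscam, 1.52, adjusted p = 0.00762) and 1 lower (Flrt3), of the Slit partners 1 was higher (Dag1, the Slit-binding dystroglycan, 0.30, adjusted p = 0.00767), of the semaphorin effectors 2 were higher and 1 lower, and of the Eph effectors 1 higher and 2 lower. These shares, between 12.5% and 18.2% of each list, were below the 23.9% of all genes called at diestrus. At estrus 0 genes of these 5 lists were called by limma, with 7 at an unadjusted p under 0.05. All genes were not counted at that threshold, so the count shows nothing particular to these lists.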

How the data were processed

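Uterine RNA of 14 libraries was sequenced, and the authors deposited 1 table of FPKM values for 31274 genes. TopHat2 2.0.4 and Cufflinks 2.0.2 on the build mm10 are named per the submitters' processing notes; annotation, options and scaling are not stated there. A gene was tested if 3 or more libraries reached 1 FPKM (14278 genes). Left out were 11 genes listed at 0 throughout a group yet averaging 50 FPKM or more elsewhere, which can be failed estimates; no member was among them. On the scale log2(FPKM + 1), limma 3.58.1 (R 4.3.3) was fitted once to all 14 libraries, with a mean per group, a trended eBayes and the Benjamini-Hochberg adjustment at 0.05; the code was checked on simulated data. Epas1 was also tested with an exact permutation test. The members and the lists of partner genes and markers were chosen with earlier results of these data known.

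Values in full were given, per comparison, for called members that averaged 2 FPKM or more in the higher group, up to 12 in each direction, for the highest member of each family and for the Slits and Robos; others were chosen after their values were seen. Coordinates are from GENCODE M21 (mm10) and promoters from RefSeq (GRCm38.p6). Library numbers were checked for pairing by the correlation of deviations. At diestrus same-numbered libraries of the genotypes had correlations of 0.321, 0.115, 0.622 and 0.217, all above 0.1. Unlike-numbered libraries had -0.454 to 0.262, and HIF2A cKO 2 was nearer to WT 1 (0.262) and WT 4 (0.14) than to WT 2. The numbers thus stood out as a pair most for 3 and not for 2. Any pairing rests on these data and on numbers the labels share. Alternatives changed the pseudocount, the filter, the scaling, the library weights, the libraries in the fit and the replicate block, or left out each library.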

Additional observations from a re-analysis of the deposited data

Results flagged for a closer look

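In 9 of 100 diestrus groups (50 members in each of 2 genotypes), 1 of the 4 libraries lay far from the others by Dixon's criterion, which chance meets in about 1 in 20 groups. In 6 of the 9 the library was a diestrus library numbered 3. Plxnb1 read 14.9 FPKM in the WT library numbered 3, with the nearest at 8.85, and 13.6 in the HIF2A cKO library numbered 3, with the nearest at 6.05. In that HIF2A cKO library Efnb3 read 12.1 (nearest 5.26), Epha4 1.89 (nearest 2.54) and Robo1 7.74 (nearest 10.4), and in the WT library numbered 3 Sema3b read 10.8 (nearest 8.58). In the HIF2A cKO library numbered 4, Efnb1 read 19.2 (nearest 21) and Plxnd1 23.9 (nearest 29.1), and Epha3 read 4.07 in the WT library numbered 2 (nearest 1.72). The HIF2A cKO diestrus library numbered 4 also listed the ribosomal RNA precursor Rn45s at 1890 FPKM, against 223 to 237 in the other libraries of its group, and its part in these values was not tested.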

How the results depend on the processing

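No member changed direction under any alternative in which it was called. The cycle counts held within 1.5 times of 15 higher and 12 lower in WT, and of 16 and 8 in HIF2A cKO, except for 2 settings: a filter of 5 FPKM left 5 members lower in WT and 4 in HIF2A cKO among fewer genes tested, and library weights gave 15 lower in HIF2A cKO. With that filter 51.4% of members were called in each genotype, against 60.3% of all genes in WT and 65.5% in HIF2A cKO. Library weights called 74% of members and 74% of all genes in HIF2A cKO. Leaving out each library in turn gave 11 to 16 higher and 10 to 12 lower in WT, and 11 to 16 and 6 to 9 in HIF2A cKO. These were 44% to 56% of members in WT, where 48.9% to 56.1% of all genes were called. In HIF2A cKO they were 34% to 50% of members, against 55.2% to 63.4% of all genes. The genotype counts at diestrus depended most on the processing. No filter left 1 member lower, the diestrus libraries alone 0 higher and 0 lower, library weights 15 and 11 (with 55.2% of all genes called), and the leave-one-out ranges were 1 to 7 higher and 1 to 7 lower. No filter called 8.77% of members and 13% of all genes, and the diestrus libraries alone 0% and 2.81%. Leaving out 1 library called 4% to 26% of members and 10.4% to 35.2% of all genes. The replicate block gave 10 higher and 8 lower with all libraries and 3 and 0 with the diestrus libraries alone, and 9 and 8 were called without both libraries numbered 3, a setting chosen after seeing the data. These fits called 36%, 6% and 34% of members, in that order, against 33.5%, 14.2% and 32.2% of all genes. At estrus library weights called 5 higher and 1 lower (9.32% of all genes), and the estrus libraries alone 1 lower, with or without the replicate block. The estrus libraries alone called 2.33% of all genes, and 0.967% with the block. Leaving out 1 library gave 0 to 0, with 0.007% to 0.056% of all genes called. The interaction had 13 higher and 6 lower with library weights (36.6% of all genes), 1 lower (Sema5b) with the replicate block in all libraries, 3 and 2 without both libraries numbered 3, and 0 to 3 higher and 0 to 2 lower leaving out 1 library. In the last 3 of these settings 3.24%, 8.36% and 0.007% to 8.27% of all genes were called. The cause was not tested. Outside diestrus the same-numbered libraries did not deviate together in every pair, and the replicate block moved no other count by over 1.5 times; with it in all libraries the cycle change was called for Sema4a in WT (adjusted p = 0.00376) and HIF2A cKO (adjusted p = 0.00662) and for Sema3a in HIF2A cKO (adjusted p = 0.00522). The table gives no counting error, and members near 1 FPKM (Epha8, Epha3, Sema5b, Efna3 and Slit2 at diestrus) are the least precise.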
